A study of Homo sapiens with 2 samples.

Results

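The genes described here are 42 genes of the DNA damage response and of DNA repair, taken as a fixed list by gene symbol, out of 19974 protein-coding genes on chromosomes 1 to 22 and X of RefSeq's GRCh38.p14 table. They comprise 16 genes of homologous recombination with its end resection and helicase partners, 4 checkpoint kinase genes, 9 Fanconi anaemia genes, 3 mismatch repair genes, 5 genes of non-homologous end joining, and 5 genes of excision and strand break repair. The measurements were ChIPmentation peak calls, that is, regions enriched after immunoprecipitation of crosslinked chromatin and adapter insertion by a transposase, in the established human pancreatic ductal adenocarcinoma cell line Panc1. The 2 samples were 1 of cells given DMSO, the solvent, and 1 of cells given inflachromene, a compound that binds HMGB1 and HMGB2, proteins of chromatin. The sources used here do not give the dose, the duration or the antibody's target. Both samples were fixed with 15 mM EGS for 30 min and with 1% formaldehyde for 10 min, and quenched with 125 mM glycine.

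On the assembled chromosomes the DMSO list held 15186 peaks and the inflachromene list 10836. The fragment number of the inflachromene library was inferred to be 0.964 times that of the DMSO library. Strength is given as the pileup at the summit, the number of sequenced fragments covering the peak's highest base, and as the authors' fold enrichment over local background. Pileups carry exact Poisson 95% intervals, ratios of pileups and shares exact binomial 95% intervals. All of them cover counting error only, and how the authors treated duplicate fragments is not stated in the labels. With 1 sample per treatment no difference below has a replicate check, and no test between treatments was made. Of 8 markers of pancreatic ductal epithelium 5 had a peak at a gene end (KRT8, KRT18, KRT19, SOX9 and MUC1), while KRT7, EPCAM and CDH1 had none. None of 5 acinar and islet markers, none of 4 fibroblast and endothelial markers and 1 of 4 blood markers (SPI1) had one.

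Cells mend broken or altered DNA by several routes. Homologous recombination copies the lost stretch from a sister chromatid, after nucleases have trimmed the broken ends and mediator proteins have loaded a recombinase. Fanconi proteins open crosslinks between strands, mismatch repair removes replication errors, end joining seals broken ends directly, and excision repair cuts out damaged nucleotides. Checkpoint kinases hold the cell cycle meanwhile. Inherited loss of several of these genes predisposes to pancreatic cancer, and tumours without homologous recombination are treated with platinum drugs and PARP inhibitors.

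The promoters below show the sequence under the summits. For each of the 5 repair routes, the member with the highest DMSO fold enrichment is given, followed by LIG4, which had the highest among the members with a DMSO peak only. Each run is the 150 bases before the RefSeq start nearest the DMSO summit (GRCh38.p14), written 5′ to 3′ on the gene's strand. Capitals mark matches, on either strand, to any of 9 motifs defined further on.
XRCC3, homologous recombination, minus strand, chr14:103715452-103715601: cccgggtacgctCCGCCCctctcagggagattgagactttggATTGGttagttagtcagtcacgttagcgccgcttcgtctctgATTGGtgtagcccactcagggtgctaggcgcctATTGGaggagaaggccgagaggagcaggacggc
FANCA, Fanconi, minus strand, chr16:89816648-89816797: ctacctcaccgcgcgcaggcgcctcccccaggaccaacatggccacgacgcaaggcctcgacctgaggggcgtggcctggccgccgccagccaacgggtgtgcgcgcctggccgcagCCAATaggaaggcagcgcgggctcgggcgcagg
PMS2, mismatch, minus strand, chr7:6009107-6009256: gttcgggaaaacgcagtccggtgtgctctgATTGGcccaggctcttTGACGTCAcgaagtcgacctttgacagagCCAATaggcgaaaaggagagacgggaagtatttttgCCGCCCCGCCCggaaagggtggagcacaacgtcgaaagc
XRCC6, end joining, plus strand, chr22:41621145-41621294: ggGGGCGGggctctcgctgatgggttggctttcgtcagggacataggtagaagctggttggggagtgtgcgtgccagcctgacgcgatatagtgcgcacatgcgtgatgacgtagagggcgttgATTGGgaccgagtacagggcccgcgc
XPC, excision, minus strand, chr3:14178602-14178751: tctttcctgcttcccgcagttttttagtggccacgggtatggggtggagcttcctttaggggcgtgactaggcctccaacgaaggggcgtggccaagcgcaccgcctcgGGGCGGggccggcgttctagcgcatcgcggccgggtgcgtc
LIG4, end joining, minus strand, chr13:108218350-108218499: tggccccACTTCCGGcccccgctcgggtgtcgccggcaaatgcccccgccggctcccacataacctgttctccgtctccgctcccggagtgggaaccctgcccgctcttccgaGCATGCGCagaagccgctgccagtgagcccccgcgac

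All 6 DMSO summits fell inside the stretch printed. They lay 97 bp before the start at XRCC3, 120 bp at FANCA, 69 bp at PMS2, 104 bp at XRCC6, 94 bp at XPC and 38 bp at LIG4. At PMS2 the summit stood just downstream of a CCAAT box at positions -75 to -71, counted backwards from the start. At LIG4 it stood next to the match to the NRF1 motif at -37 to -30.

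Most of the repair genes were marked by a peak under either treatment. A peak counted for a gene when a summit, its own or that of an overlapping peak from the second library, was within 1000 bp of either annotated end. By this rule 36 of the 42 genes had a DMSO peak, which is 85.7% (71.5 to 94.6), against 45.8% of all protein-coding genes. An inflachromene peak was present at 31, which is 73.8% (57.96 to 86.14), against 38.2% of all genes. The list was chosen with earlier results of these data known, which these intervals do not cover. Both lists had a peak at 30 of the 42, the DMSO list alone at 6, the inflachromene list alone at 1, and neither list at 5. Among the 36 genes with a DMSO peak, 6 had no inflachromene peak, which is 16.7% (6.37 to 32.8), against 20.2% of all genes with a DMSO peak. Among the 31 with an inflachromene peak, 1 had no DMSO peak (3.23%), against 4.16% over all genes. The last 2 shares were thus near those of all genes.

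**Figure D1:**
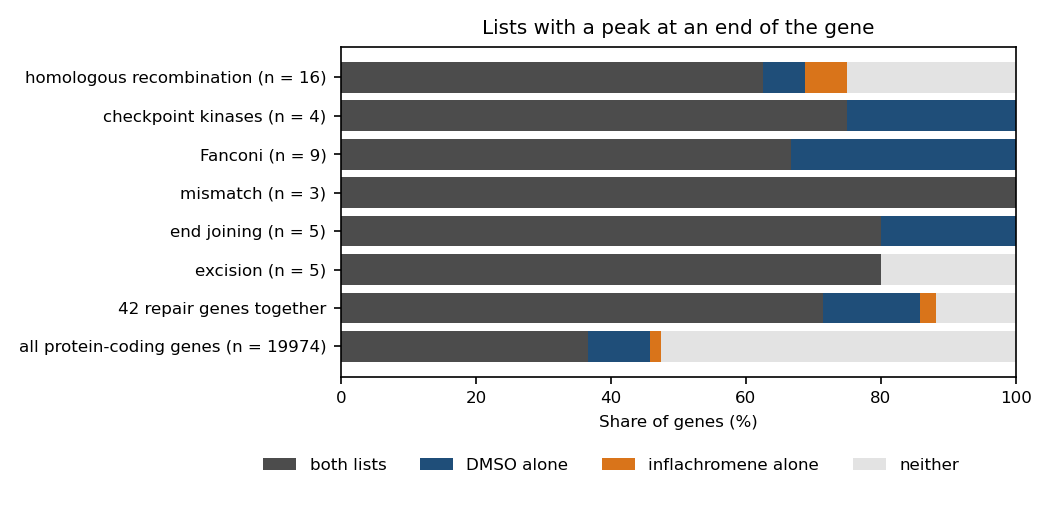
Share of genes (%) whose ends carried a peak under both treatments (dark grey), under DMSO alone (blue), under inflachromene alone (orange) or under neither (pale grey), for each repair class, for the 42 genes together and for all 19974 protein-coding genes. All 9 Fanconi genes had a DMSO peak and 3 of them had none in inflachromene, whereas the 4 homologous recombination genes and the 1 excision gene in the pale segment had no peak at an annotated end.

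In homologous recombination, 11 of 16 genes had a peak in DMSO and 11 in inflachromene, 10 of them in both. The strongest was XRCC3, whose product is a paralog of the recombinase. Its summit held 90 fragments in DMSO (72.4 to 110.6) and 84 in inflachromene (67.0 to 104.0), at 18.95-fold and 16.3-fold enrichment. BARD1, encoding the partner with which BRCA1 forms a ubiquitin ligase, had 71 (55.5 to 89.6) and 51 (38.0 to 67.1) fragments in a DMSO peak at 214809626 to 214810231 on chromosome 2. At XRCC3 and at BARD1 the DMSO and inflachromene intervals overlapped. RAD54L and RAD54B encode motor proteins that remodel DNA during strand exchange. RAD54L had 57 fragments in DMSO and 43 in inflachromene.

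RAD54B, on chromosome 8, had 41 fragments in DMSO (29.4 to 55.6) and 17 in inflachromene (9.90 to 27.2). Its intervals did not overlap, and its ratio of inflachromene to DMSO pileup, 0.415 (0.221 to 0.746), was the lowest of the 30 genes with both peaks. Of these 30 genes it was also the only one whose ratio interval lay wholly below 1, which is 3.33% of them against 8.57% of all genes with both peaks. The interval lay wholly above 1 at 0 of the 30 genes and at 12 of 7304 over all genes.

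XRCC2, a further recombinase paralog, had 25 fragments in DMSO and 14 in inflachromene, a ratio of 0.560 (0.269 to 1.12). BLM, a RecQ helicase gene, had 45 and 40. PALB2, whose product bridges BRCA1 and BRCA2, had 24 and 20. RAD50 and NBN encode subunits of the complex that senses broken ends and starts their trimming. RAD50 had 34 and 20 fragments, with a ratio of 0.588 (0.321 to 1.05), and NBN had 41 and 32. Each of these ratios was below 1, and each interval reached beyond it.

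RAD51D, a recombinase paralog on chromosome 17, had a peak in DMSO alone, with 13 fragments (6.92 to 22.2) at 5.98-fold and 78 bp from the gene's end. The inflachromene summit nearest to either end of the gene lay 2806 bp away. WRN, the RecQ helicase gene of Werner syndrome, was the reverse case. Its inflachromene peak held 11 fragments (5.49 to 19.7) at 7.13-fold, 123 bp from the gene's end, and the nearest DMSO summit lay 375.5 kb away. That peak also lay 331 bp from an end of PURG. Both pileups lay under the median of 23 fragments that each list had over all its peaks.

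No peak was found near BRCA2, whose product loads the recombinase, or near RAD51C. The nearest summit to an end of BRCA2 lay 138.6 kb away in DMSO and 186.1 kb away in inflachromene, and neither list had a peak inside the gene. At RAD51C the nearest summits lay 13.23 kb and 13.19 kb away. An uncalled peak is not a measurement of 0, since the lists hold only regions past the authors' cutoff.

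**Figure D2:**
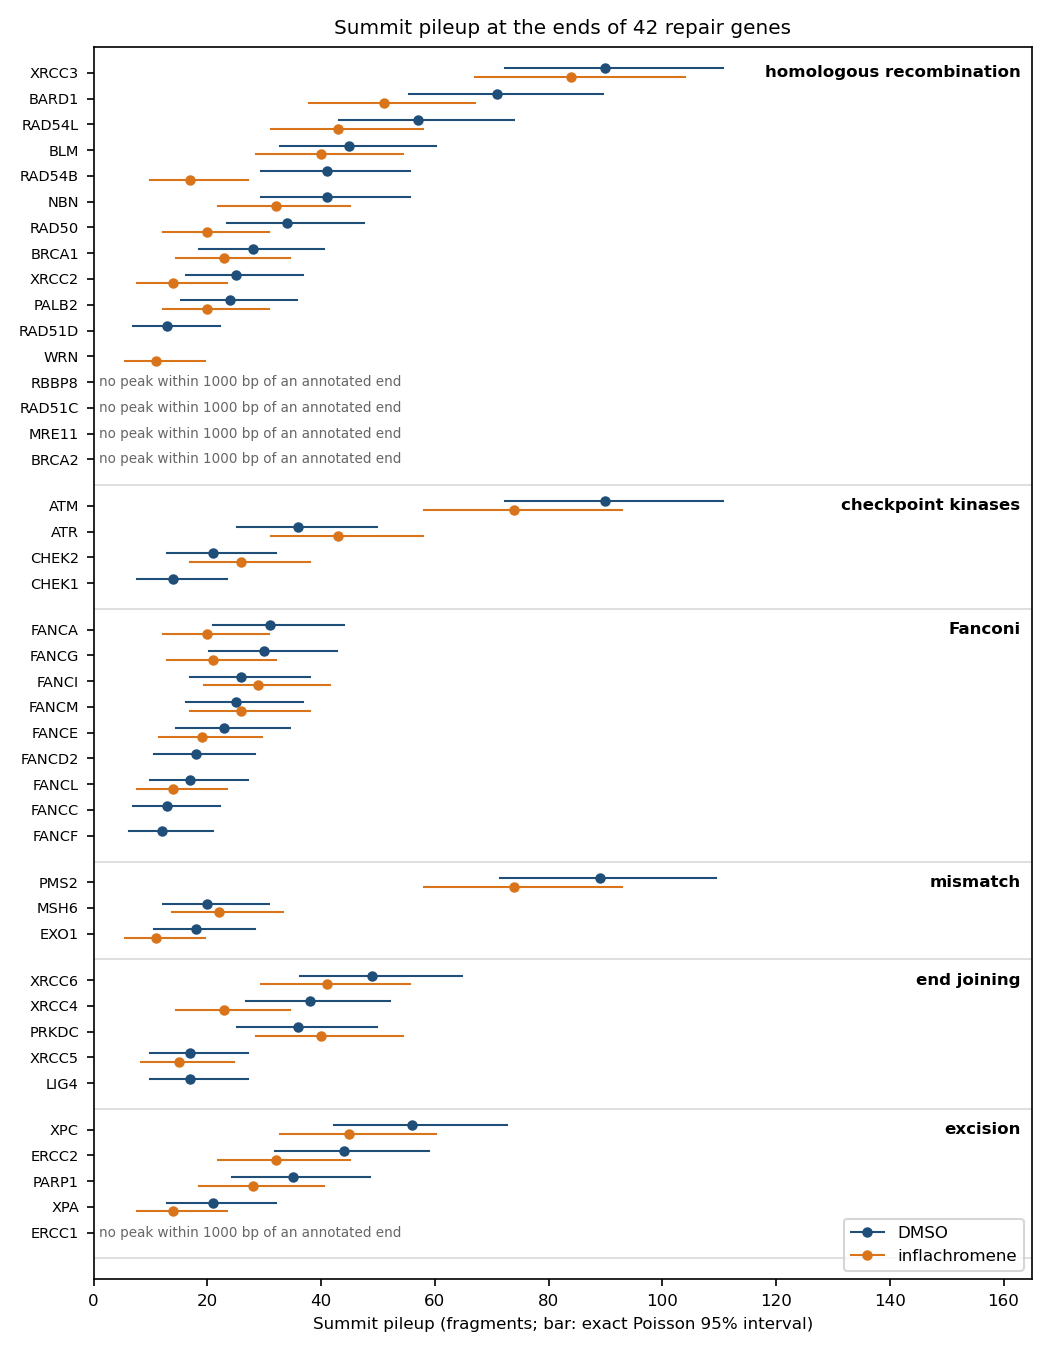
Summit pileup in fragments of the strongest peak at an end of each of the 42 genes, in DMSO (blue) and inflachromene (orange), with exact Poisson 95% intervals, grouped by class and ordered by DMSO pileup. XRCC3, ATM and PMS2 reached 89 or 90 fragments in DMSO, and the genes with a DMSO peak alone sat between 12 and 18. RAD54B is the only member with both peaks whose intervals do not overlap, a count that was not made over all genes.

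Of the checkpoint kinases, ATM was as strong as XRCC3, with 90 fragments in DMSO (72.4 to 110.6) and 74 in inflachromene (58.1 to 92.9) at 108222532 to 108223303 on chromosome 11. The protein responds to double-strand breaks. ATR, which responds to stalled replication forks, had 36 in DMSO and 43 in inflachromene, a ratio of 1.19 (0.749 to 1.91). CHEK2, a target of ATM, had 2 DMSO peaks. The stronger lay 757 bp from the end, with 21 fragments, and did not overlap the inflachromene peak of 26 fragments, which lay 16 bp from the end. The weaker DMSO peak, 33 bp from the end, held 19 fragments and overlapped it. Among the checkpoint kinases with both peaks, 1 of 3 had the lower pileup in inflachromene, against 10 of 10 in homologous recombination and 77.2% of all genes with both peaks. By listed starts, described further on, it was 1 of 4 against 9 of 10. The 9 include BRCA1, whose strongest DMSO and inflachromene peaks lay at different starts. Its outer start had 28 fragments in DMSO and 23 in inflachromene, its inner start 19 and 21. The difference between the classes was not tested.

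All 9 Fanconi genes had a DMSO peak. Their median was 23 fragments, against 28 over all genes with a DMSO peak and 41 over those of homologous recombination. It was also 23 over all peaks of the DMSO list, and 20 over the 3 mismatch repair genes. The strongest Fanconi gene was FANCA, which encodes a subunit of the core complex that attaches ubiquitin at crosslinks. FANCA had 31 fragments in DMSO (21.1 to 44.0) and 20 in inflachromene (12.2 to 30.9). FANCG, of the same complex, had 30 and 21, and FANCE had 23 and 19. FANCL, encoding the ubiquitin ligase itself, had 17 and 14. FANCM, whose product anchors the complex to DNA, had 25 and 26. FANCI, of the pair that receives the ubiquitin, had 26 and 29. Of these 6 genes with both peaks, 4 had fewer fragments in inflachromene and 2 had more. Over all genes with both peaks, 77.2% had fewer.

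The remaining 3 Fanconi genes, 33.3% (7.485 to 70.1) of the 9, were marked in DMSO alone. FANCD2, the ubiquitinated partner of FANCI, had 18 fragments (10.7 to 28.45) at 6.375-fold, 69 bp from the gene's end, with the inflachromene summit nearest to either end 13.67 kb away. FANCC had 13 fragments (6.92 to 22.2) at 5.885-fold, and its nearest inflachromene summit was 109.1 kb away. FANCF had 12 fragments (6.20 to 20.96) at 6.74-fold, and its nearest was 2235 kb away. The interval of this share contains the 20.2% of all genes.

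The 3 mismatch repair genes carried peaks under both treatments. PMS2, encoding an endonuclease subunit, had 89 fragments in DMSO (71.5 to 109.5) and 74 in inflachromene (58.1 to 92.9), at 17.6-fold and 14.97-fold. EXO1, the exonuclease gene, had 18 and 11, a ratio of 0.611 (0.261 to 1.37). MSH6, whose product recognises mismatched bases, had 20 (12.2 to 30.9) and 22 (13.8 to 33.3) at its strongest peaks. MSH6 had a further DMSO peak of 17 fragments, 794 bp inside its annotated 5′ end and 14 bp before an alternative start, and no inflachromene peak was called there.

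In end joining, all 5 genes had a DMSO peak and 4 of them also an inflachromene peak. XRCC6 and XRCC5 encode the Ku subunits that cap a broken end. XRCC6 had 49 fragments in DMSO (36.25 to 64.8) and 41 in inflachromene (29.4 to 55.6), and XRCC5 had 17 (9.90 to 27.2) and 15 (8.395 to 24.7). A stronger peak inside XRCC5, 5532 bp from an end in DMSO, held 27 fragments in DMSO and 24 in inflachromene, at 10.65-fold and 9.44-fold. XRCC4, which supports the ligase, had 38 and 23, a ratio of 0.605 (0.344 to 1.04). LIG4, the ligase gene, had a peak in DMSO alone, with 17 fragments (9.90 to 27.2) at 7.40-fold, and the nearest inflachromene summit lay 1054 kb away. PRKDC, encoding the catalytic subunit of the DNA-dependent protein kinase, had 36 and 40 fragments at a peak 717 bp outside the gene, 88 bp from an end of MCM4. A separate DMSO peak 38 bp from its own end held 18 fragments (10.7 to 28.45), and no inflachromene peak overlapped it.

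In excision and strand break repair, 4 of 5 genes were marked under both treatments. All 4 had fewer fragments in inflachromene, against 77.2% of all genes with both peaks. By listed starts it was 4 of 5. XPC, the damage sensor gene of global nucleotide excision repair, had 56 fragments in DMSO (42.3 to 72.7) and 45 in inflachromene (32.8 to 60.2). ERCC2, encoding a helicase of the transcription factor TFIIH, had 44 and 32. PARP1, whose product detects strand breaks, had 35 and 28. XPA, a scaffold gene of the incision complex, had the lowest DMSO fold enrichment of the 4, with 21 and 14 fragments at 9.31-fold and 7.55-fold. ERCC1, encoding part of an incision nuclease, had no peak at an annotated end.

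Several members have transcripts that start far from the outermost annotated end. The position was therefore also taken from the RefSeq promoter table, which lists 36 of the 42 genes and 15812 protein-coding genes. The members not matched were RAD54B, NBN, WRN, PRKDC, XRCC5 and FANCI. Within 1000 bp of a listed start, 34 of 36 members had a DMSO peak (94.4%, 81.3 to 99.3), against 50.3% of all listed genes, and 29 had an inflachromene peak, against 42.2%. BRCA2 and RAD51C were the 2 without a peak. By this measure 5 of 34 kept a DMSO peak without an inflachromene one, namely RAD51D, FANCC, FANCD2, FANCF and LIG4, which is 14.7% (4.95 to 31.1) against 19.4% of all listed genes.

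By starts, 4 of the 36 members fell into another class than by gene ends, each with a peak at an inner start. MRE11, the nuclease gene of the complex with RAD50 and NBN, had a DMSO peak at 94493706 to 94494173 on chromosome 11, 45 bp before a listed start and 18.52 kb inside the gene's outer end. It held 45 fragments in DMSO (32.8 to 60.2) at 16.4-fold and 25 in inflachromene (16.2 to 36.9) at 9.755-fold. The ratio was 0.556 (0.3265 to 0.9255), and MRE11 was the only 1 of 29 members with both peaks at a start whose interval lay wholly below 1, against 8.66% of all listed genes. Inflachromene had the lower pileup at 22 of these 29 genes, against 77.3% of all listed genes. The 22 include BRCA1, whose strongest DMSO and inflachromene peaks lay at different starts.

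RBBP8, encoding a cofactor of that nuclease, had 15 fragments in DMSO and 16 in inflachromene at an inner start on chromosome 18. CHEK1, the effector kinase gene downstream of ATR, had 28 and 30 fragments in peaks 29 bp after and 47 bp before its inner starts. These peaks lay 1122 bp and 1041 bp from the gene's annotated end, just outside the 1000 bp window. The DMSO peak that the window did take in at CHEK1 lay 503 bp from the end and held 14 fragments at 4.67-fold, the lowest fold of any member, with no inflachromene peak over it. ERCC1 had 47 (34.5 to 62.5) and 50 (37.1 to 65.9) fragments at 45423568 to 45424072 on chromosome 19. Its fold enrichment was only 7.65, against 16.7 for the 49 fragments of XRCC6, since the local background was 5.27 fragments per base at ERCC1 and 1.996 at XRCC6. Further peaks lay inside ERCC1. At 45443428 to 45443818, 7902 bp from an end, DMSO had 56 fragments and inflachromene 37. DMSO alone had a peak of 36 fragments at 45424282 to 45424523, and inflachromene alone a peak of 22 at 45439625 to 45439857.

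BRCA1 carried peaks at both of its listed starts. The outer start, at 43170327 on chromosome 17, had 28 fragments in DMSO (18.6 to 40.5) and 23 in inflachromene (14.6 to 34.5) at summits 781 bp and 780 bp away. That peak also lay 699 bp from an end of NBR1 and 144 bp from the lncRNA gene LOC124900391. The inner start, at 43125364, had 19 fragments (11.4 to 29.7) in DMSO, 120 bp upstream, and 21 (13.0 to 32.1) in inflachromene, at -141 bp. BRCA1 and CHEK2, at 781 bp and 757 bp, were the members whose strongest peak lay closest to the limit of the window on its inner side, and ERCC1, at 1537 bp in DMSO, was the nearest beyond it among the genes with no peak.

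**Figure D3:**
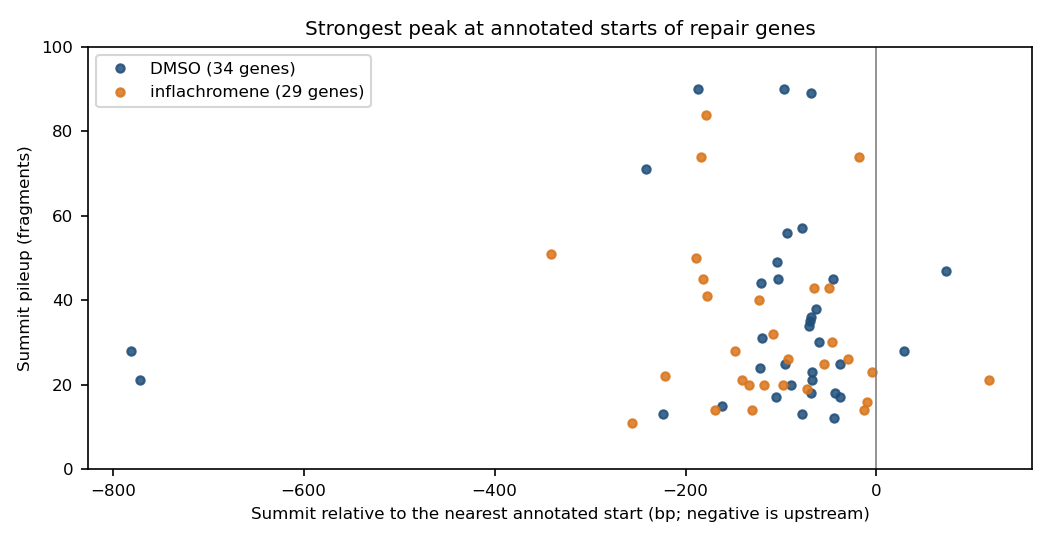
Position of the strongest summit relative to the nearest listed RefSeq start (bp, negative is upstream) against summit pileup (fragments), for the 34 members with a DMSO peak (blue) and the 29 with an inflachromene peak (orange) at a start. The DMSO summits cluster within 250 bp of the start at 32 of 34 genes, and BRCA1 and CHEK2 stand apart near -781 and -771.

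The summits lay close to transcription starts. For the 31 members with a DMSO peak at an annotated end and a listed strand, all 31 peaks were at the 5′ end. The same count was not made over all genes, so it cannot be called a trait of the members. Of the 34 DMSO summits at listed starts, 32 lay upstream of the nearest start (94.1%), with a median of -78 bp. Over all listed genes with such a peak, 84.7% lay upstream, with a median of -85 bp. Within 250 bp of the start lay 94.1% of these summits in the members and 85.3% over all genes.

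**Figure D4:**
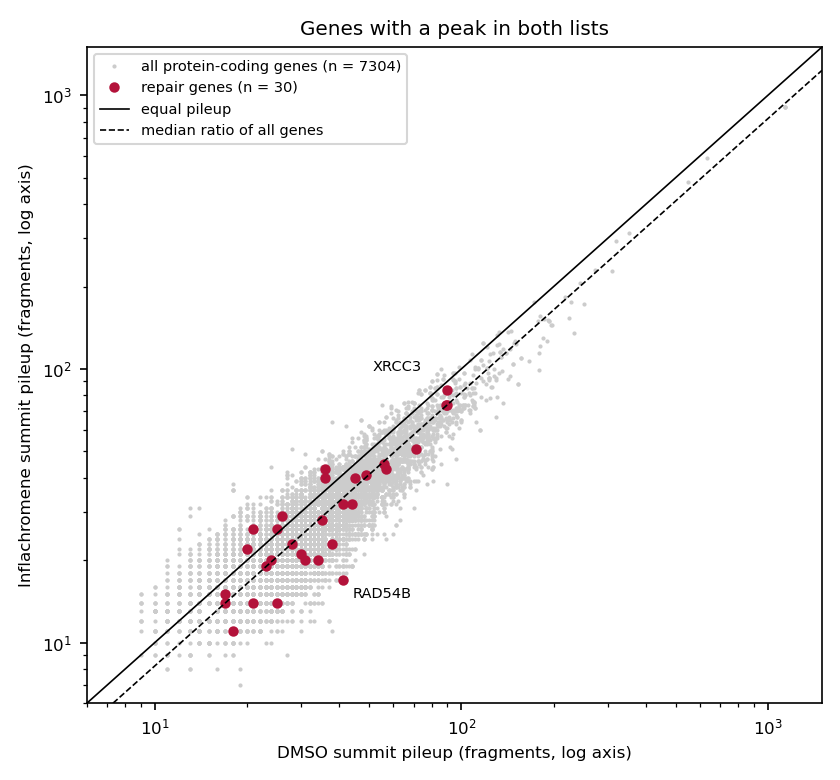
Summit pileup in inflachromene against DMSO (fragments, log axes) for the 30 repair genes with a peak in both lists (red) and all 7304 protein-coding genes with both (grey). The red points lie around the dashed line of the median ratio of all genes, 0.822, with RAD54B the furthest below it and XRCC3 close to the solid line of equal pileup.

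Where both peaks were present, the repair genes had on the whole fewer fragments in inflachromene, as had most other genes. Their ratio of inflachromene to DMSO pileup had a median of 0.822 (n = 30), from 0.415 at RAD54B to 1.24 at CHEK2. Over all 7304 genes the median was also 0.822, and 15 of the 30 lay below it. Inflachromene had the lower pileup at 24 of the 30 (80.0%), against 77.2% of all genes. Summed over the 30 genes there were 1178 fragments at the DMSO summits and 961 at those of inflachromene, a ratio of 0.816 (0.748 to 0.889). That interval covers counting error only. The ratio of fragment numbers of the libraries, 0.964, was inferred and has no interval. Whether depth or fragment length accounts for the lower pileups was not tested.

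The 5 lowest ratios were those of RAD54B, XRCC2, RAD50, XRCC4 and EXO1, between 0.415 and 0.611. The 5 highest were those of CHEK2, ATR, FANCI, PRKDC and MSH6, between 1.10 and 1.24. The interval of the ratio contained 1 at each of these 10 genes other than RAD54B, for example 0.670 to 2.31 at CHEK2, 0.634 to 1.97 at FANCI and 0.690 to 1.79 at PRKDC. Thus 3 of the 5 lowest belong to homologous recombination and none of the 5 highest does. That class supplied 10 of the 30 ranked genes. By class the median ratio was 0.767 over 10 homologous recombination genes, 0.825 over 6 Fanconi genes, 0.8315 over 3 mismatch repair genes, 0.8595 over 4 end joining genes and 0.764 over 4 excision genes. It was 1.19 over 3 checkpoint kinase genes. The classes overlapped in range, with 0.645 to 1.115 in Fanconi and 0.605 to 1.11 in end joining, and no difference between them was tested.

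The members without an inflachromene peak at an annotated end had weak DMSO peaks there, though not the 6 weakest. They had DMSO pileups of 12 to 18 fragments and fold enrichments of 4.67 to 7.40, against 17 to 90 fragments and 6.38 to 18.95 for the 30 with both peaks. The ranges overlapped: MSH6 (6.38-fold) and XRCC5 (7.01-fold), which had both peaks, were below LIG4 in DMSO fold enrichment. CHEK1, the lowest at 4.67-fold, is counted here although it had an inflachromene peak of 30 fragments 1041 bp from its end. By listed starts CHEK1 had both peaks. When all genes with a DMSO peak were ranked by fold enrichment and divided into 5 groups of about equal size, the weakest group held 6 members, of which 5 had no inflachromene peak, against 52.65% of its 1831 genes. In the next group it was 1 of 4, against 31.1% of genes. In the upper groups it was 0 of 8, 0 of 7 and 0 of 11, against 13.8%, 3.11% and 0.382%. When the DMSO list was held to the length of the inflachromene list by dropping its weakest peaks, LIG4 was the 1 member left with a peak in DMSO alone. The Fanconi list had no member in the strongest group, as its highest fold enrichment was 11.6 at FANCA.

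Several of these peaks are shared with a neighbour, so which gene a peak belongs to was not determined. The strongest DMSO summit of 13 of 36 members (36.1%) also lay within 1000 bp of an end of another protein-coding gene, against 31.6% of all genes with a DMSO peak. At ATM the neighbour was NPAT, a histone gene activator, 242 bp from the summit. PALB2 shared its peak with DCTN5, XRCC3 with ZFYVE21, PMS2 with AIMP2, XRCC6 with DESI1, XPC with LSM3 and XRCC4 with TMEM167A. Others were IL5 at RAD50, HSCB at CHEK2, GAS2 at FANCF, NBR1 at BRCA1 and MCM4 at PRKDC. At LIG4 the summit lay 5 bp from an end of ABHD13 and 38 bp from that of LIG4. At DCTN5 it lay 34 bp away, nearer than the 122 bp of PALB2.

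The promoters were also described by their letters, 250 bases before to 50 after the first listed start of each gene. The motifs, searched on both strands, were GGGCGG (GC box), CCAAT (the NF-Y box), CCGGAAGT (ETS factors), GCATGCGC (NRF1), TTTGGCGC or TTTCCCGC (E2F), TTTGAA (the cell cycle homology region), CACGTG (E-box), TGACGTCA (CRE) and AAGATGGCG (YY1). Matches of different motifs may overlap, and a match is a description, not a site. The GC box was present in 28 of 36 members (77.8%, 60.85 to 89.9), against 58.5% of 15812 promoters and 74.4% of those with a DMSO peak at a start. The CCAAT box was present in 16 (44.4%), against 36.3% and 40.3%.

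An E2F match was found in 6 of 36 members (16.7%, 6.37 to 32.8), namely XRCC2, FANCC, FANCD2, MSH6, XRCC6 and XPC. The share was 3.07% over all promoters and 4.13% over those with a DMSO peak. Of these 6 genes, FANCC and FANCD2 had a peak in DMSO alone and the other 4 had both. The CRE letters were found in RAD51C, XRCC2, PMS2 and EXO1, 11.1% (3.11 to 26.1) against 2.59% and 3.74%. The ETS letters were found in 6 members (16.7%), among them BRCA2 and LIG4, against 6.20% and 10.5%. NRF1 letters were in 3 members (8.33%), against 4.26% of all promoters and 6.38% of those with a DMSO peak. The other motifs had a lower share in the members than over all promoters in this window. The cell cycle homology region was in 2 (5.56%, against 12.1%), the E-box in 3 (8.33%, against 8.87%) and YY1 letters in 0 (against 2.75%). For YY1, 0 of 36 allows up to 9.74%, the bound of the exact interval. In a shorter window, 120 bases before to 50 after the start, the GC box was in 55.6% of members against 63.9% of promoters with a DMSO peak, and the ETS letters in 8.33% against 8.81%, so both shares were then below that of promoters with a DMSO peak. The E-box was then in 8.33% of members, above the 5.98% of all promoters and the 7.51% of those with a DMSO peak. Median GC content was 64.5% in the members and 62.7% over all promoters. Among those with a DMSO peak at a start it was 64.7% in the members and 66% over all promoters.

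A further list of 78 repair and checkpoint genes, also chosen with earlier results of these data known, was read by the same rule. Of these, 70 had a DMSO peak and 66 an inflachromene peak, 89.7% (80.8 to 95.5) and 84.6% (74.7 to 91.8), against 45.8% and 38.2% of all protein-coding genes. Of the 78, 65 had both peaks and 5 only the DMSO peak. Of the 70 with a DMSO peak, 7.14% (2.36 to 15.9) had no inflachromene peak, against 16.7% of the members and 20.2% of all genes. The median ratio over the 65 genes was 0.821. The highest DMSO fold enrichment was at APEX1, the endonuclease gene of base excision repair, with 153 fragments in DMSO (129.7 to 179.3) and 88 in inflachromene (70.6 to 108.4). ERCC4, encoding the nuclease partner of ERCC1, had 98 and 102. USP1, whose product removes ubiquitin from FANCD2, had 192 and 151, H2AX, the histone phosphorylated at breaks, 112 and 89, and RPA2, which coats single-stranded DNA, 60 and 55. Those in DMSO alone were MLH3 (17 fragments), LIG3 (20), ERCC3 (11), RNF8 (19) and POLH (22). Neither list had a peak at RPA3, DNA2, POLB, NEIL1, UVSSA, MAD2L2 or SHLD1.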

How the data were processed

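The samples were 1 DMSO and 1 inflachromene ChIPmentation library of Panc1 cells. The submitters' processing notes name hg38, MACS2 and deepTools 3.5.6; the sources used here give no aligner, control or pooling. For each peak the authors deposited an integer score (not used), the summit's offset, and at that base the fold enrichment, a ratio to local background, with its −log10 p-value and −log10 q-value. The smallest deposited −log10 q-value was 3.018 (DMSO) and 3.015 (inflachromene).

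Whole-number pileups were computed from fold enrichment and −log10 p by the caller's formulas, which matched every deposited −log10 p-value within 0.001. This inversion and the assignment of peaks to gene ends were tested on simulated data. The fragment number ratio was inferred from the lowest background (0.651 and 0.683) and fragment lengths (152.4 and 165.7 bp). Peaks on chromosomes 1 to 22 and X were used. The strongest peak at a gene, by fold enrichment, gives its values; "shared" means an overlap of at least 1 bp. Positions, names and sequences are RefSeq's (GRCh38.p14, the same coordinates as hg38). Python 3.11.15, numpy 2.4.6, pandas 2.3.3 and scipy 1.17.1 were used.

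The members, the classes and the list of further repair genes were chosen with earlier results of these data known. Genes named in full were those with the highest and lowest DMSO fold enrichment of a class, with a peak in 1 list alone, with the 5 highest and 5 lowest ratios, or with 2 DMSO peaks; others are given by their pileups. Of the further genes, those with a peak in 1 list alone, other than 1 that is not reported here, and the 5 with the highest DMSO fold enrichment are named.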

Additional observations from a re-analysis of the deposited data

How the results depend on the processing

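Of 107 recomputed values, 102 stayed within 1.5 times the reported count, or for the median ratio within the counting error of the summed ratio. The other 5 moved and 0 were scored as reversed. Most of these values are counts of members, which cannot reverse. The members' shares set against those of other genes were not scored. The median ratio ranged from 0.804 with each peak given only to the nearest gene end to 0.831 with fold enrichment in place of pileup. With the DMSO list held to the length of the inflachromene list, members with a peak in DMSO alone fell from 6 to 1 (LIG4), as only the weakest DMSO peaks were left out. Within 1000 bp of a listed start, an alternative chosen after the data were examined, members with an inflachromene peak alone fell from 1 to 0 and end joining genes with a DMSO peak from 5 to 3, as WRN, PRKDC and XRCC5 were not matched there. In a promoter window of 120 bases before to 50 after the start, 3 members held the ETS letters in place of 6 and 1 the cell cycle homology region in place of 2. The GC box was then in 20 members in place of 28, and E2F letters in 5 in place of 6. For the GC box and the ETS letters this put the members' share below that of promoters with a DMSO peak (55.6% against 63.9%, and 8.33% against 8.81%), where it had been above. For the E-box it put the members' share above that of all promoters (8.33% against 5.98%), where it had been below. Classes changed for BRCA1, CHEK1 and PRKDC with a window of 500 bp, for CHEK1 and ERCC1 with 2500 bp, for BRCA1, PALB2, PRKDC and LIG4 with the nearest gene end only, and for CHEK1 with a −log10 q of at least 5. Own summits alone, and summits within 250 bp as shared, changed no member. No paired analysis was possible because each treatment had 1 sample. Depth limits the genes with under 20 fragments most: the interval around 13 fragments runs from 6.92 to 22.2, and an uncalled peak sets no level.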
